A study of Aspergillus cristatus with 9 samples.

Results

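*Aspergillus cristatus*, the golden flower fungus (also named *Eurotium cristatum*), carries many genes annotated as beta-glucosidases. This account covers 2 of the 10227 genes listed for it, SI65_03316 (putative beta-glucosidase E) and SI65_07054 (putative beta-glucosidase F). They were chosen by name, and with their FPKM in these libraries already known, so all values of both genes are given as a description with no test. FPKM is a read level corrected for the length of the gene and the depth of the library.

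Strain JLU was used in all 3 groups, and it had first been grown on potato dextrose agar plates for 10 days. EcRS is the fungus taken off sterilized *Panax ginseng* roots, EcSQ is the fungus taken off *P. notoginseng* roots, and EcCK is the fungus that met no root. A temperature of 28 °C and an age of 1 week are recorded for all 3 groups. Each group had 3 RNA-seq libraries of total RNA, and nothing in the labels says whether these came from separate cultures. The labels call all samples mycelium, while the methods of the study describe the control as spores collected from plates, so root contact and the kind of material cannot be told apart.

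Beta-glucosidases remove a terminal, beta-linked glucose from a sugar chain or from a glucoside. In fungi that grow on plants they split cellobiose, the glucose pair left by cellulases, and so finish the breakdown of cellulose. Fungal members of the family are also known for taking glucose off plant glucosides, ginsenosides among them, which is why they are of interest in ginseng fermentation. Fungal genomes usually hold many such genes, some for secreted enzymes and some for enzymes inside the cell.

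Both genes carry the enzyme number EC 3.2.1.21 (beta-glucosidase) and both are listed in the KEGG maps of starch and sucrose metabolism and of cyanoamino acid metabolism. E lies on the minus strand of contig 3, from position 137472 to 140905, with 3 exons and a coding length of 3321 bases, and has the KEGG orthology number K05349. F lies on the minus strand of contig 8, from 379473 to 382223, with 4 exons and a coding length of 2610 bases, and has K01188. Positions are those of the deposited table. F therefore belongs to a different orthology group from E. Of the 18 genes with EC 3.2.1.21, 16 had K05349, and the only other gene with K01188 was SI65_00661.

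Between 45891944 and 61627866 estimated counts fell in listed genes per library. These exceed the valid reads that the study lists for each EcCK and EcRS library, so they are not read numbers. Count, FPKM and length together imply a total per library. The share of this total outside listed genes was 12.1 to 14.1% in EcCK, 23.1 to 26.9% in EcRS and 12.1 to 14.9% in EcSQ. The libraries also differed in their middle level. Among the 9033 genes whose mean over the libraries reached 1 FPKM, the library median was 16.2 to 24.2 FPKM in EcCK, 8.22 to 9.25 in EcRS, and 25.9, 18.4 and 6.39 in EcSQ replicates 1, 2 and 3. Log2 FPKM correlated between replicates at 0.877 to 0.974 in EcCK and at 0.987 to 0.990 in EcRS. EcCK replicates 1 and 3 were over 2-fold apart in 30.9% of genes, and EcRS replicates in 1.48 to 2.29%. EcSQ replicate 3 stood apart from its group: its log2 FPKM correlated with replicates 1 and 2 at 0.777 and 0.853, while these 2 correlated with each other at 0.95. The EcSQ values of E and F and the gene counts that involve EcSQ are therefore also given without this library. Because a bulk sample was measured, fewer cells of a type and less RNA per cell cannot be told apart.

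Beta-glucosidase F was the more abundant gene in the control and was far lower on both kinds of root. It stood at 70.4, 69.7 and 60.2 FPKM in EcCK (66.8 ± 5.66, mean and SD, n = 3). In EcRS it stood at 3.26, 4.90 and 2.81 FPKM (3.66 ± 1.10), and in EcSQ at 12.9, 6.47 and 1.26 FPKM (6.87 ± 5.81). All control libraries lay far above every root library, and the 3 control values were within 1.17-fold of each other. The EcRS range lay inside the EcSQ range, since EcSQ replicate 3 was the lowest of all 9 libraries. The estimated counts behind these values were 10919 to 12916 in EcCK, 477 to 803 in EcRS and 210 to 2141 in EcSQ. They are not read numbers, so no counting error was taken from them.

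Beta-glucosidase E was at a middle level in the control, low on *P. ginseng* roots and uneven on *P. notoginseng* roots. It stood at 15.9, 19.8 and 28.9 FPKM in EcCK (21.6 ± 6.68, n = 3). In EcRS it stood at 1.49, 2.12 and 2.34 FPKM (1.98 ± 0.441), and in EcSQ at 15.3, 9.22 and 1.02 FPKM (8.50 ± 7.15). The EcRS libraries were close to each other and all below the control. EcSQ replicate 1 lay just below the lowest control library, whereas EcSQ replicate 3 was the lowest of all, so that the highest EcSQ value was 15 times the lowest. The estimated counts were 3470 to 6671 in EcCK, 350 to 505 in EcRS and 215 to 3232 in EcSQ.

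**Figure D1:**
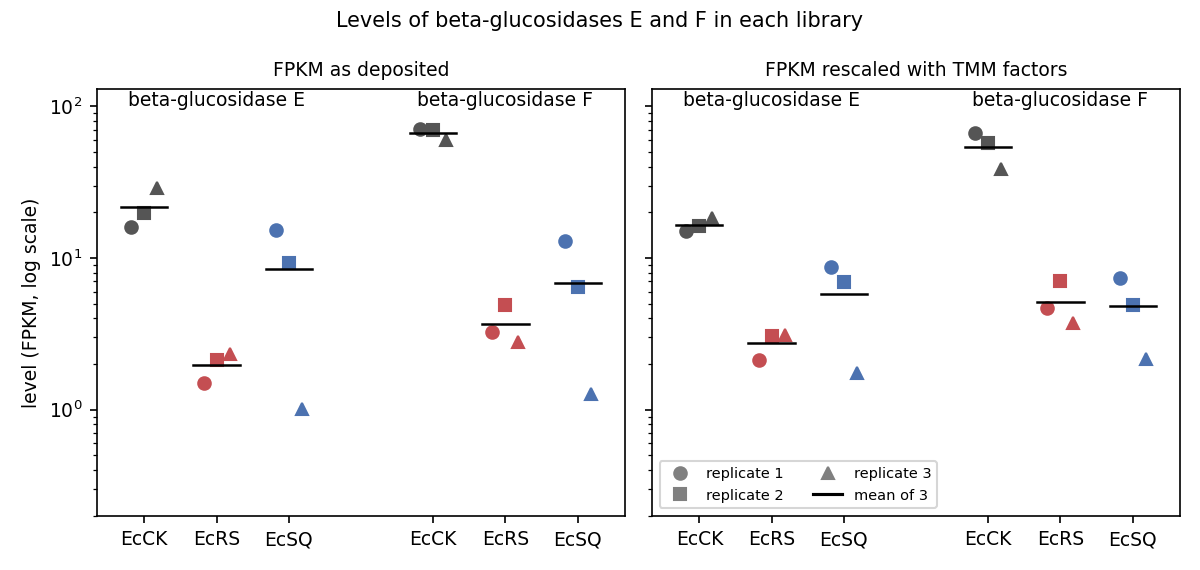
FPKM of beta-glucosidases E and F in each of the 9 libraries on a log scale, as deposited (left) and after rescaling with TMM factors (right), with the mean of 3 replicates as a bar. The control libraries lie above all root libraries for both genes in both panels, and EcSQ replicate 3 is the lowest point of each gene.

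Between EcRS and EcCK, the ratio of mean FPKM was −3.44 on the log2 scale for E (10.9-fold lower) and −4.19 for F (18.3-fold lower). All 3 EcRS libraries lay below all 3 EcCK libraries for both genes, a pattern found in 54.3% of the 8925 genes tested in this comparison. The median gene of this comparison had a log2 fold change of −0.96, so that relative to it E was at −2.48 and F at −3.23. Among all genes tested, 12.6% had a lower log2 ratio than E and 7.92% a lower one than F. TMM scaling, which sets the bulk of genes equal between libraries, gave −2.58 for E and −3.39 for F, and the groups still did not overlap, as in 37.9% of genes under that scaling.

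Between EcSQ and EcCK, the log2 ratio of mean FPKM was −1.34 for E (2.54-fold lower) and −3.28 for F (9.72-fold lower). All EcSQ libraries lay below all EcCK libraries for both genes, as in 17.7% of the 9160 genes tested (20.9% with TMM scaling, where E and F also did not overlap). The median gene was at −0.01 here, and 14.5% of genes had a lower log2 ratio than E, against 2.41% for F. Without EcSQ replicate 3 the log2 ratio was −0.82 for E (1.76-fold lower) and −2.79 for F (6.91-fold lower). Without EcSQ replicate 1 it was −2.07 for E and −4.11 for F. The size of both ratios thus depended on single EcSQ libraries. EcRS and EcSQ were both set against the same 3 control libraries.

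Between the 2 kinds of root, EcRS over EcSQ, the log2 ratio of mean FPKM was −2.10 for E (4.29-fold lower) and −0.91 for F (1.88-fold lower). The median gene of this comparison had a log2 ratio of −0.84, so that relative to it E was at −1.26 and F at −0.07. Among all genes tested, 17.6% had a lower log2 ratio than E and 47.4% a lower one than F. The groups overlapped for both genes, while 21.1% of the 8784 genes tested had every EcRS library below every EcSQ library. Without EcSQ replicate 3 the log2 ratios were −2.63 (6.17-fold lower) and −1.40 (2.64-fold lower), and without EcSQ replicate 1 they were −1.37 and −0.08. With TMM scaling E kept its direction at −1.08, whereas F turned to 0.10. The order of the groups by mean FPKM was EcCK, EcSQ, EcRS for both genes. For E this order held under every scaling tried, and for F only the place of EcCK at the top did.

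The rank of each gene within its own library, which no scaling changes, gave the same picture for the control and a different one for the roots. E exceeded 55.3 to 60.2% of all listed genes in EcCK and 29.1 to 35.1% in EcRS. In EcSQ replicates 1, 2 and 3 it exceeded 42.4, 42.1 and 27.5%. F exceeded 77.4 to 84.5% in EcCK and 37.6 to 47.7% in EcRS. In EcSQ replicates 1, 2 and 3 it exceeded 38.2, 35.8 and 30.6%. By rank, F was therefore placed slightly lower in EcSQ than in EcRS, with overlapping ranges, the reverse of the order of the mean FPKM. Set against the library median, E was at 0.979 to 1.19 times the median gene in EcCK and 0.173 to 0.258 times in EcRS. In EcSQ replicates 1, 2 and 3 it was at 0.589, 0.500 and 0.159 times. F was at 2.49 to 4.33 times in EcCK and 0.304 to 0.597 times in EcRS. In EcSQ replicates 1, 2 and 3 it was at 0.496, 0.351 and 0.198 times. E followed the library median within EcCK, where both were lowest in replicate 1 and highest in replicate 3, and F did not.

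The balance between the 2 genes also differed between groups. The FPKM of F over that of E within a library was 4.42, 3.51 and 2.08 in EcCK (3.34 ± 1.18, n = 3), 2.19, 2.31 and 1.2 in EcRS (1.90 ± 0.607), and 0.843, 0.702 and 1.24 in EcSQ (0.929 ± 0.280). F exceeded E in every EcCK and EcRS library, and E exceeded F in EcSQ replicates 1 and 2. The EcCK and EcSQ ratios did not overlap, and the EcRS ratios overlapped both. Library scaling cancels in this ratio.

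**Figure D2:**
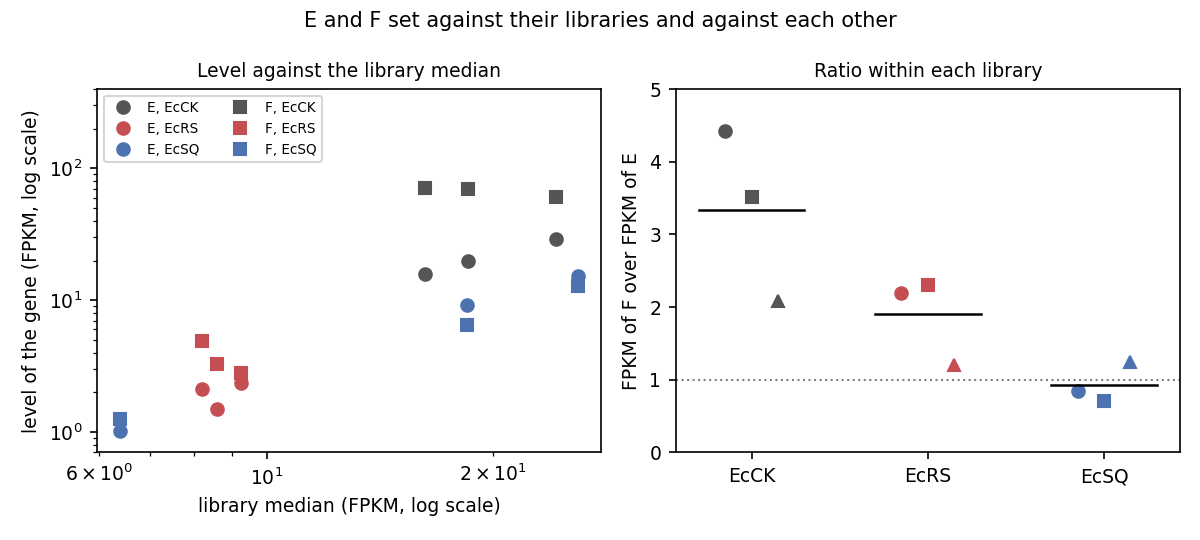
Left: FPKM of E (circles) and F (squares) against the library median FPKM, both on log scales, for the 9 libraries. Right: FPKM of F over FPKM of E within each library, with the group mean as a bar and a dotted line at 1. In EcCK all ratios lie between 2.08 and 4.42, and in EcSQ replicates 1 and 2 they lie below 1.

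Next, E and F were placed among all 18 genes with EC 3.2.1.21. The summed FPKM of these genes was 259.8 to 342 in EcCK, 207.9 to 216 in EcRS and 243 to 373 in EcSQ. F made up 18.6 to 27.1% of this sum in EcCK and 1.33 to 2.27% in EcRS. In EcSQ replicates 1, 2 and 3 it made up 3.98, 1.73 and 0.519%. E made up 5.80 to 8.94% in EcCK and 0.716 to 1.11% in EcRS. In EcSQ replicates 1, 2 and 3 it made up 4.72, 2.47 and 0.418%. Thus F was first or second of the 18 in every control library, lay between ranks 5 and 7 in EcRS, and between ranks 6 and 10 in EcSQ. E held ranks 5 to 7 in EcCK, 7 to 8 in EcRS and 5 to 7 in EcSQ. Without E and F the sum of the other 16 was 174 to 253 FPKM in EcCK, 203 to 209 in EcRS and 241 to 357 in EcSQ, so these sums overlapped between EcRS and EcCK.

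Most of the sum on the roots was held by 3 other genes. Putative beta-glucosidase A (SI65_01409) made up 10.5 to 23.6% of it in EcCK and 54.7 to 57.9% in EcRS. In EcSQ replicates 1, 2 and 3 it made up 21.4, 33.3 and 33.8%. SI65_01615, a hypothetical protein with K05349, made up 12.5 to 18.1% in EcCK and 18.1 to 20.4% in EcRS. Its share in EcSQ replicates 1, 2 and 3 was 18.2, 30.9 and 52.0%. Putative beta-glucosidase M (SI65_10009) made up 2.63 to 3.99% in EcCK and 9.27 to 11.8% in EcRS. Its share in EcSQ replicates 1, 2 and 3 was 15.3, 16.7 and 5.46%. The annotation of the group is uneven, since 5 of the 16 other genes carry oxidoreductase or monooxygenase terms and 1 a transcription factor term.

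**Figure D3:**
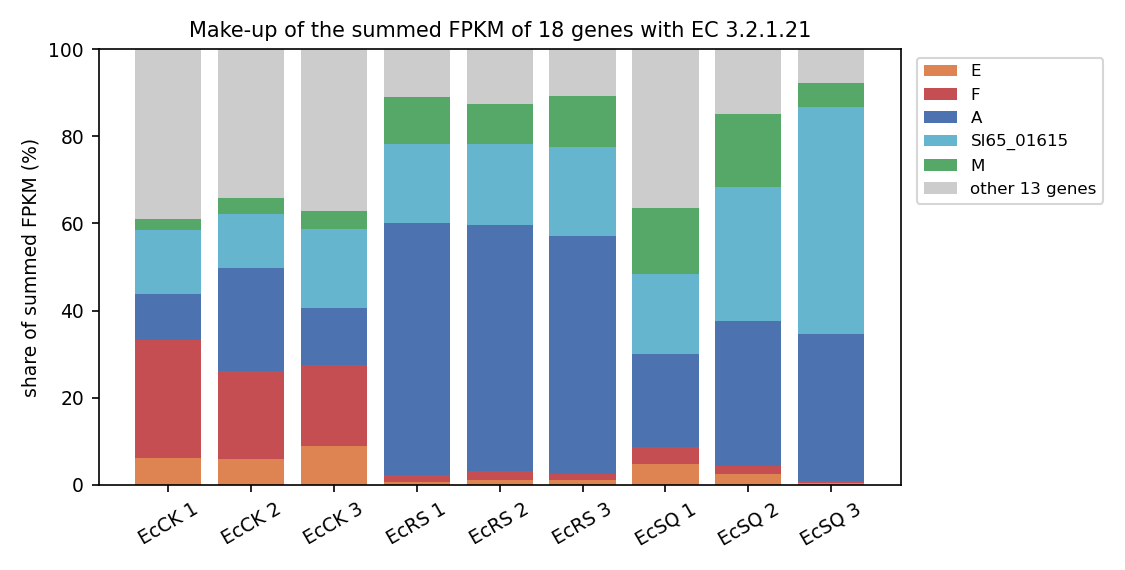
Share (%) of the summed FPKM of the 18 genes with EC 3.2.1.21 that each named gene held in each library, with the other 13 genes in grey. F alone fills 18.6 to 27.1% of the bar in the control libraries and at most 3.98% in a root library, while A fills 54.7 to 57.9% in the EcRS libraries.

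The other beta-glucosidase genes, which were taken by their annotation, could be tested. They were the 23 genes besides E and F that had EC 3.2.1.21 (16) or the word beta-glucosidase in their description or GO terms (7, mainly enzymes of beta-glucan). A gene was called with edgeR's quasi-likelihood test at a Benjamini-Hochberg adjusted p of at most 0.05 and a change of at least 2-fold. In EcRS against EcCK, 19 of the 23 passed the filter, a mean of 1 FPKM or more. Of these 13 were lower, 2 were higher and 4 were not called, while over all genes tested 47.6% were called lower and 12.8% higher. The median log2 fold change was −2.48, against −0.96 over all genes tested. With TMM scaling 12 were lower and 3 higher, against 31.4% and 26.4% of all genes.

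Several of the down-regulated genes reached levels in EcRS below those of E and F. Beta-glucosidase I (SI65_02969) went from 3.62 ± 0.796 to 0.146 ± 0.0546 FPKM, with a log2 fold change of −4.59 ± 0.44 (SE; edgeR adjusted p = 4.1e-05). The neighbouring K05349 genes SI65_04812 and SI65_04813 changed by −5.19 ± 0.87 and −4.86 ± 0.58 on the log2 scale (edgeR adjusted p = 0.00076 and 0.00012). SI65_07696 went from 9.15 ± 1.90 to 0.726 ± 0.193 FPKM (−3.65 ± 0.36, edgeR adjusted p = 4.4e-05). SI65_00661, which shares its orthology number with F, went from 2.92 ± 0.672 to 0.401 ± 0.0979 FPKM (−2.85 ± 0.39, edgeR adjusted p = 0.00025). The level of SI65_00661 in the control was far below the 66.8 FPKM of F. SI65_01533, with a glucan exo-1,3-beta-glucosidase term, was at 150.2, 78.1 and 39.9 FPKM in EcCK and at 3.08, 3.75 and 3.84 in EcRS (−4.65 ± 0.50, edgeR adjusted p = 6.9e-05).

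Among the genes of beta-glucan, putative glucan endo-1,3-beta-glucosidase btgC (SI65_03825) and glucan 1,3-beta-glucosidase D (SI65_06998) were also down-regulated, by −3.19 ± 0.51 and −3.62 ± 0.57 on the log2 scale (edgeR adjusted p = 0.00056 and 0.00051). Putative beta-glucosidase btgE (SI65_02326), whose orthology number is that of glucan 1,3-beta-glucosidase and which was the most abundant gene of the list, went from 853 ± 350 to 329 ± 27.7 FPKM (−1.37 ± 0.37, edgeR adjusted p = 0.010). This call was lost with TMM scaling (−0.48). The other 4 down-regulated genes, SI65_02760, SI65_07957, SI65_08956 and SI65_10137, had log2 fold changes between −3.09 and −2.0, and each of them carries an oxidoreductase or monooxygenase term.

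The 2 up-regulated genes were A and M. A was at 27.3, 80.7 and 42.5 FPKM in EcCK and at 120.4, 122.0 and 115.4 in EcRS (1.25 ± 0.38 on the log2 scale, edgeR adjusted p = 0.018). M was at 6.83, 12.3 and 12.9 FPKM in EcCK and at 22.4, 20.0 and 24.9 in EcRS (1.07 ± 0.29, edgeR adjusted p = 0.010). All EcRS libraries lay above all EcCK libraries for both genes, as in 18.3% of genes tested. Without EcCK replicate 1 neither reached 2-fold, at 0.95 for A and 0.83 for M, and without EcRS replicate 3 M was at 0.99. SI65_01615, glucan 1,3-beta-glucosidase A (SI65_01456), SI65_07398 and SI65_01058 were not called. The 4 genes not tested (SI65_00869, SI65_00955, SI65_05925 and SI65_09822) had a mean below 1 FPKM.

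In EcSQ against EcCK, 1 of 19 other beta-glucosidase genes was lower and none was higher by edgeR, against 1.87% and 1.72% of all genes tested. At an unadjusted p under 0.05, 1 was lower and 2 were higher, while 1894 of the 9160 genes tested passed that threshold in either direction. DESeq2 called 1 lower and 1 higher, beside 1036 lower and 1274 higher over all genes. With limma 1 was lower and none higher, beside 259 and 196 over all genes. Without EcSQ replicate 3, edgeR called 1 lower and 1 higher, against 6.69% and 9.88% of all genes tested. The gene called was SI65_01533, at 9.02, 6.26 and 1.05 FPKM in EcSQ (−4.04 ± 0.87 on the log2 scale, edgeR adjusted p = 0.042). This call was lost when any one of EcCK replicates 1 to 3 or EcSQ replicates 1 and 2 was left out, with adjusted p between 0.053 and 0.20. The median log2 fold change of the 19 genes was −0.52, against −0.01 over all genes. M stood at 49.5, 62.5 and 13.3 FPKM and A at 69.1, 124 and 82.2 in EcSQ, and neither passed the test (edgeR adjusted p = 0.13 and 0.40).

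In EcRS against EcSQ, none of 18 genes was called in either direction by edgeR, and over all 8784 genes tested none was called lower and 3 higher (0.0342%). At an unadjusted p under 0.05, 8 of the 18 were lower and none higher, while 2670 of the 8784 genes passed that threshold in either direction. DESeq2 called 5 lower, beside 1067 lower and 458 higher over all genes, and limma called none. Without EcSQ replicate 3, edgeR called 13 lower and none higher, against 49.8% and 4.23% of all genes tested. SI65_00661, which was not among the 18, was tested in that run and is among the 13. M, which was higher in EcRS than in EcCK, is also among the 13 (−1.32 ± 0.23, edgeR adjusted p = 0.00040). A was not called there (0.30 ± 0.28). The largest differences were then those of SI65_04812, I, SI65_04813, btgC and SI65_07696, between −4.81 and −3.75 on the log2 scale.

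**Figure D4:**
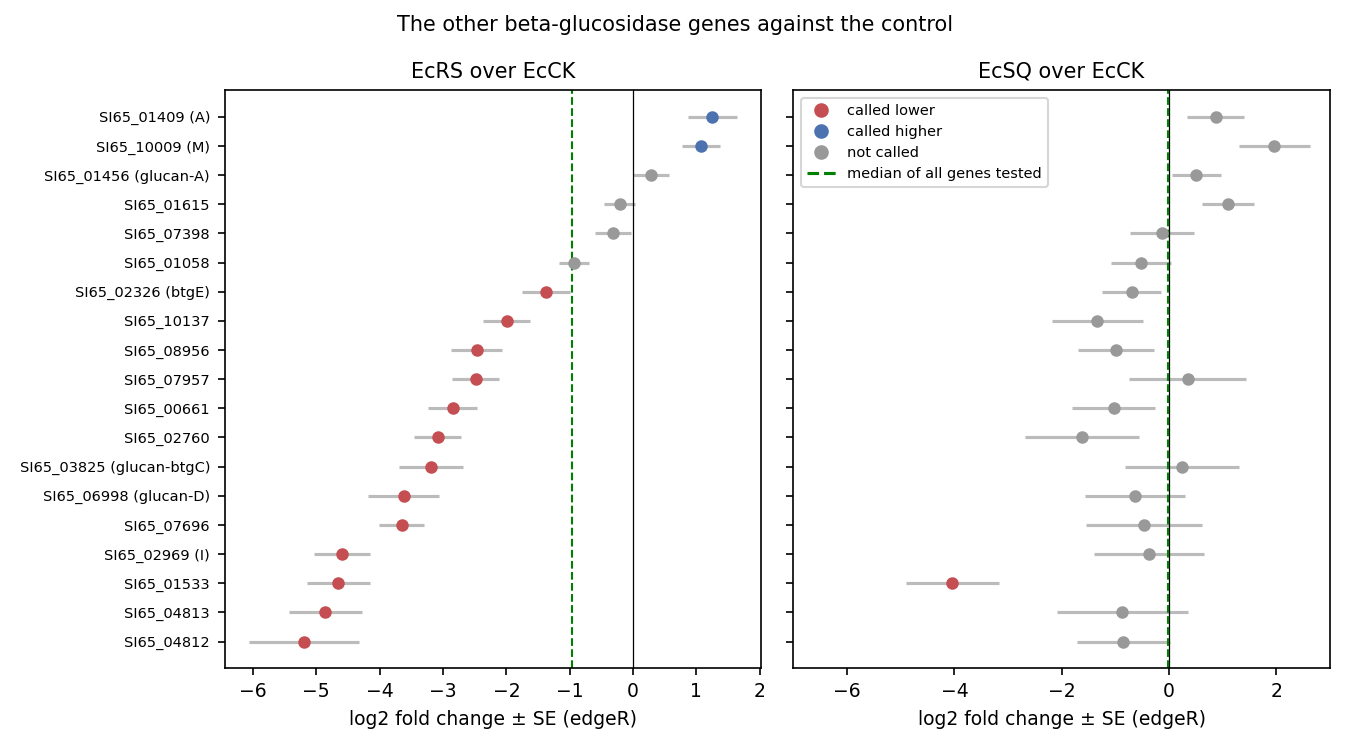
Log2 fold change ± SE from edgeR of the 19 other beta-glucosidase genes tested, EcRS over EcCK (left) and EcSQ over EcCK (right), with the median of all genes tested as a dashed line. In the left panel 13 genes lie at −1.37 or below and are called lower and 2 are called higher, and in the right panel 1 gene is called.

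The wider pathways held genes that went both ways. In the KEGG map of cyanoamino acid metabolism, 20 of 30 other genes tested were lower and 3 higher in EcRS than in EcCK, with a median log2 fold change of −2.45, and 16 of the 37 listed genes are shared with the beta-glucosidase list. In that of starch and sucrose metabolism 37 of 69 were lower and 9 higher, with a median of −1.35, and 21 of the 74 listed genes are shared. Other glycosidases that remove single sugars, such as galactosidases, mannosidases and alpha-glucosidases, had 12 of 24 lower and 6 higher, with a median of −1.43. These shares stand beside the 47.6% lower and 12.8% higher of all genes tested, and the medians beside −0.96. With TMM scaling the counts were 18 lower and 3 higher, 28 and 18, and 10 and 7, beside 31.4% and 26.4% of all genes.

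Down-regulated members of these lists included SI65_06552, annotated as a gamma-glutamyltransferase, an enzyme of glutathione breakdown, which went from 56.4 ± 23.7 to 0.622 ± 0.198 FPKM. They also included an alpha-mannosidase-like gene (SI65_06153), from 16.9 ± 0.799 to 0.369 ± 0.0785 FPKM, and putative alpha-galactosidase C (SI65_10149), from 10.2 ± 6.45 to 0.226 ± 0.0672 FPKM. Their log2 fold changes were −6.49 ± 0.47, −5.50 ± 0.30 and −5.46 ± 0.58 (edgeR adjusted p = 1.6e-05, 1.0e-05 and 6.9e-05). A trehalose-phosphate synthase gene (SI65_04660), for the first step of trehalose formation, was at 3308, 772 and 18.6 FPKM in EcCK and at 0.572 to 3.28 in EcRS, so that the control libraries differed widely among themselves.

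Several genes for other enzymes that release sugars from cellulose and starch were higher on the roots. Of the cellulose breakdown genes, 2 of 7 were lower and 3 higher in EcRS than in EcCK, beside 47.6% lower and 12.8% higher of all genes tested. Their median log2 fold change was 1.10, against −0.96 over all genes. With TMM scaling none was lower and 5 were higher, beside 31.4% and 26.4% of all genes. Endoglucanase A (SI65_09823), which cuts cellulose chains internally, was at 0.958, 2.88 and 6.90 FPKM in EcCK, 278.5, 230.5 and 345 in EcRS, and 1447, 566 and 223 in EcSQ. Its log2 fold change was 6.30 ± 0.71 in EcRS (edgeR adjusted p = 8.6e-05) and 7.69 ± 1.09 in EcSQ (adjusted p = 0.021). The EcSQ call was lost without EcCK replicate 1, EcCK replicate 2 or EcSQ replicate 2 (adjusted p between 0.052 and 0.14). SI65_07774, a gene with a cellulose term, went from 1.06 ± 0.216 to 55.7 ± 9.27 FPKM in EcRS and 173 ± 54.8 in EcSQ. The glucoamylases SI65_00180 and SI65_00176, which release glucose from starch, went from 1.25 ± 0.761 and 7.56 ± 3.08 FPKM to 75.9 ± 5.71 and 139 ± 34.8 in EcRS (edgeR adjusted p = 2.4e-05 and 4.1e-05). All root libraries lay above all control libraries for these 4 genes, opposite to E and F, as in 18.3% of genes for EcRS and 14.3% for EcSQ.

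In EcSQ against EcCK, where 1.87% of all genes tested were called lower and 1.72% higher, the calls in these lists depended on single libraries. Cellulose breakdown had none of 9 lower and 4 higher, single-sugar glycosidases none of 24 lower and 2 higher, cyanoamino acid metabolism 1 of 31 lower and 1 higher, and starch and sucrose metabolism 3 of 69 lower and 3 higher. At an unadjusted p under 0.05, the cellulose list had none lower and 4 higher and the single-sugar list 1 and 5. The cyanoamino list had 3 and 3 and the starch and sucrose list 6 and 10. Over all genes, 1894 of the 9160 tested passed that threshold in either direction. DESeq2 called none and 4, 2 and 5, 4 and 2, and 9 and 9 in these lists, beside 1036 lower and 1274 higher over all genes. Without EcSQ replicate 3 the cellulose list had none lower and 6 higher, the single-sugar list 1 and 7, the cyanoamino list 2 and 2, and the starch and sucrose list 5 and 10, against 6.69% lower and 9.88% higher over all genes. Without EcCK replicate 1 or without EcSQ replicate 2, edgeR called 0 genes of the whole table in this comparison, with 1158 and 1297 at an unadjusted p under 0.05.

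In EcRS against EcSQ none of the 4 lists had an edgeR call in either direction. There, at an unadjusted p under 0.05, 3 of 9 cellulose genes and 11 of 24 single-sugar glycosidases were lower and none higher. In the cyanoamino list 11 of 27 were lower and 1 higher, and in the starch and sucrose list 19 of 66 and 1. Over all genes, 2670 of 8784 passed that threshold in either direction. DESeq2 called 2, 4, 5 and 9 lower and 0, 1, 1 and 3 higher, beside 1067 lower and 458 higher over all genes. Without EcSQ replicate 3, edgeR called 8 cellulose genes, 18 single-sugar glycosidases, 21 cyanoamino and 36 starch and sucrose genes lower, against 49.8% of all genes tested. It then called 1 cyanoamino and 1 starch and sucrose gene higher and none in the other lists, against 4.23% of all genes.

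Since the control may hold spores, genes with conidium, spore or sporulation terms were followed beside E and F. Of 258 tested in EcRS against EcCK, 91 were lower and 33 higher, which is 35.3% and 12.8% of the list beside 47.6% and 12.8% of all genes. The median log2 fold change of the list was −0.41, against −0.96 over all genes. With TMM scaling 58 were lower and 86 higher, beside 31.4% and 26.4% of all genes, and the median was 0.43, against −0.11. DESeq2 called 58 lower and 89 higher, beside 2814 and 2424 of all 8925 genes. Its summed FPKM was 27705 to 38386 in EcCK, 47055 to 52851 in EcRS and 41268 to 67999 in EcSQ, so all root libraries lay above the control in the sum. The median FPKM of the list went the other way in EcRS, at 32.7 to 53.8 in EcCK and 25.5 to 31.8 in EcRS, and it was 49.5, 51.1 and 24.1 in EcSQ replicates 1, 2 and 3. At most 4 of its 267 genes were at 0 in a library, and no gene of the table carried the word hydrophobin. The 4 largest calls of the list in EcRS against EcCK were all lower, and no up-regulated gene of the list is named here. Among these 4, SI65_02621 went from 25.2 ± 6.87 to 0.388 ± 0.0694 FPKM in EcRS and stood at 26.3, 26.9 and 0.917 in EcSQ. In EcSQ against EcCK 3 of 261 were lower and 1 higher, against 1.87% and 1.72% of all genes tested. Without EcSQ replicate 3 these counts were 16 and 18, against 6.69% and 9.88%. In EcRS against EcSQ none of 253 was called by edgeR. At an unadjusted p under 0.05, 64 were lower and 7 higher, while 2670 of all 8784 genes passed in either direction. DESeq2 called 22 lower and 13 higher, beside 1067 and 458 over all genes. Without EcSQ replicate 3, edgeR called 99 lower and 14 higher there, against 49.8% and 4.23% of all genes tested. The part of spore content in the levels of E and F was not tested.

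The genes beside E and F on their contigs did not share one pattern. On one side of E, 654 bases away, SI65_03317 stood at 33.2 ± 5.17 FPKM in EcCK, 33.9 ± 2.25 in EcRS and 26.0 ± 12.2 in EcSQ and was not called. On the other side, 657 bases away, SI65_03315 went from 4.47 ± 1.33 to 1.34 ± 0.263 FPKM in EcRS (−1.73 ± 0.42 on the log2 scale, edgeR adjusted p = 0.0056), a call lost with TMM scaling. The next gene on that side, SI65_03314, was at 2478, 1958 and 553 FPKM in EcCK, 158.3 to 398 in EcRS and 37.0 to 98.6 in EcSQ (edgeR adjusted p = 0.0053 and 0.021). The first call was lost with TMM scaling (adjusted p = 0.055), and the second without EcCK replicate 1, EcCK replicate 2 or EcSQ replicate 2 (adjusted p between 0.052 and 0.15). SI65_03313 beyond it was also lower in EcRS (−2.26 ± 0.28, edgeR adjusted p = 0.00014). The nearest gene to F, SI65_07053 at 290 bases, stood at 10.5 ± 4.12, 8.94 ± 2.65 and 4.0 ± 1.41 FPKM in EcCK, EcRS and EcSQ. On the other side of F, 927 bases away, a gene for S-methyl-5'-thioadenosine phosphorylase (SI65_07055), of the methionine salvage pathway, stood at 74.7 ± 55.3, 155 ± 3.40 and 145 ± 13.9 FPKM. Neither was called in any comparison, nor were SI65_07056, SI65_07057 and the 2-methylcitrate synthase gene SI65_03318 in those where they were tested. SI65_03319, SI65_07051 and SI65_07052 were too low to be tested.

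The genes whose pattern over the 9 libraries was most like that of each enzyme were mostly without a name. By Pearson's r of log2(FPKM + 1), the 5 closest to E were SI65_09515, SI65_09684, SI65_03363, SI65_02354 (an RNA polymerase II subunit by its orthology number) and SI65_04496, with r of 0.998 to 0.995. Such likeness was common, since 1028 of 9033 genes had r of at least 0.95 with E. The 5 closest to F were SI65_03785, the ribonuclease T2-like gene SI65_05888, SI65_01641, SI65_00685 and SI65_07494, with r of 0.996 to 0.990, and 296 genes had r of at least 0.95. SI65_05888 was at 151.0, 132 and 113 FPKM in EcCK, 11.2, 11.2 and 10.9 in EcRS and 34.0, 19.1 and 5.75 in EcSQ, the same order of libraries within EcCK and EcSQ as F. E and F correlated with each other at 0.912, which placed F 1931st among the genes most like E and E 797th among those most like F. These values describe likeness across libraries that share depth and group, over 9 points.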

How the data were processed

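RNA of the 9 libraries was sequenced after Illumina library preparation. The authors deposited 1 table with an estimated count and an FPKM for each gene and library, and their processing notes for the series list Bowtie 0.12.2, StringTie 1.3.0 and HISAT2 2.0. The methods of the study name an NCBI assembly as the reference, which was not matched to the contig names of the table here. The roles of these tools and the strand setting were not given in the sources used here. The counts derive from coverage, so they were rounded and their counting error is approximate. E and F were described by FPKM. Other genes were tested with edgeR 4.0.16 (R 4.3.3) on the rounded counts, in the 6 libraries of each comparison. Library sizes were the totals implied by count, FPKM and length in genes of 200 or more counts. These totals exceed the valid reads that the study lists for EcCK and EcRS, so they are not numbers of mapped reads. Genes with a mean below 1 FPKM were left out. Alternatives were TMM factors, DESeq2 1.42.0, limma 3.58.1 on log2(FPKM + 1) and with pseudocounts 0.1 and 5, other filters, totals and count units, all 9 libraries, no fold threshold, a replicate block, and each library left out. Figures were drawn with matplotlib 3.10.9. The edgeR procedure was also run on counts simulated for EcRS against EcCK with a known set of changed genes. That run held no general shift between groups and no EcSQ library, so it says nothing on those points.

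The members and gene lists were chosen with earlier results of these data known. The genes named are all beta-glucosidase genes, 3 neighbours on each side of E and F, the 5 genes most like each, and some of the 4 largest calls of each list in EcRS against EcCK. For EcRS and EcCK, deviations from the group means correlated at 0.122 to 0.294 between same-numbered libraries, against −0.282 to 0.195 for different numbers. These ranges overlap, and the labels name no pairs. The numbers were therefore treated as pairs in an alternative fit only. The p-values measure the spread between these libraries, which may be technical.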

Additional observations from a re-analysis of the deposited data

How the results depend on the processing

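E and F stayed below the control in both root groups under all 13 kinds of alternative run, E between −3.62 and −1.90 and F between −4.46 and −3.05 (log2) in EcRS, and E between −2.07 and −0.82 and F between −4.11 and −2.72 in EcSQ. In EcRS against EcCK, E was at −2.58 with TMM, −2.56 with DESeq2 size factors, −2.25 over the library median, −2.89 as a mean of log2(FPKM + 1) and −1.90 with a pseudocount of 5. F was at −3.39, −3.36, −3.05 and, with a pseudocount of 5, −3.06. F in EcRS against EcSQ reversed to 0.10 with TMM, 0.12 with DESeq2 size factors and 0.29 over the library median. The root libraries differ in their middle level, which these scalings remove.

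Leaving out 1 library gave, for E and F, −3.62 to −3.17 and −4.46 to −4.03 in EcRS against EcCK, −2.07 to −0.82 and −4.11 to −2.79 in EcSQ against EcCK, and −2.63 to −1.37 and −1.40 to −0.08 in EcRS against EcSQ. Of the other beta-glucosidase genes, 13 to 14 were then lower and 0 to 2 higher in EcRS against EcCK, 0 to 1 lower and 0 to 1 higher in EcSQ against EcCK, and 0 to 13 lower and 0 higher in EcRS against EcSQ. Leaving out EcSQ replicate 3 gave the 13, and EcCK replicate 1 the 0 higher.

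In EcRS against EcCK limma with a pseudocount of 5 left 6 lower and 1 higher, a filter of 5 FPKM left 4 lower, since fewer genes were tested, and all 9 libraries in one fit left 1 higher. In EcSQ against EcCK limma with a pseudocount of 0.1 left 0 lower, and TMM, DESeq2 and the fit of 9 libraries each called 1 higher. In EcRS against EcSQ DESeq2 called 5 lower and the fit of 9 libraries 4. Apart from the filter, the cause was not tested.

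With the replicate block, 13 beta-glucosidase genes were lower and 2 higher in EcRS against EcCK, as without it. Over all genes the block gave 4142 lower and 1221 higher there, against 4251 and 1145. In EcSQ against EcCK, same-numbered libraries had correlations of −0.112 to −0.0393. There the block left 0 beta-glucosidase genes lower, and 25 lower and 9 higher over all genes, against 171 and 158. In EcRS against EcSQ (−0.168 to 0.212) it left 0 and 0, against 0 and 3. In EcRS against EcCK the block changed no call of a named gene. Of 52 calls of named genes over the comparisons, 29 held under all alternatives run and none reversed.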
